A study of Homo sapiens with 6 samples.

Results

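The genes described here encode the parts of the DNA replication fork that turn the MCM ring into a working helicase and keep it stable: the GINS subunits GINS1, GINS2, GINS3 and GINS4, the helicase cofactor CDC45, the fork protection proteins TIMELESS, TIPIN and CLSPN, the polymerase adaptor WDHD1 and the RecQ helicase RECQL4. All 10 were found on the array, through 23 of its 54675 probe sets. A probe set was taken as a member when the platform annotation gave it one of these symbols and no other. The rule uses no measured value, but the genes were proposed with earlier results of these data known. The 10 genes stand among 19775 genes with such a probe set.

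Transcripts were measured in 76N cells, an established line from normal human breast epithelium. There were 3 samples given an siRNA against Ecd and 3 given a control siRNA, 1 Affymetrix array each, all grown in DFCI-1 medium. The siRNA sequences, dose and harvest time are not given in the sources used here, and all values come from 1 cell line. Ecd is the product of ECD, the human counterpart of the fly gene ecdysoneless, and the comparison asks which transcripts differ once it is depleted.

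As background, replication origins are first loaded with an inactive ring of MCM proteins. At the start of S phase CDC45 and the GINS complex join the ring, and the resulting CDC45-MCM-GINS assembly unwinds the parental DNA. The TIMELESS-TIPIN pair and claspin, the product of CLSPN, travel with this helicase, hold it together with the polymerases and pass the signal of the kinase ATR to its effector CHK1 when forks stall. Many replication genes are transcribed in a wave before S phase under control of E2F factors. In a bulk measurement, fewer cells in S phase and less RNA per cell cannot be told apart.

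The targeted transcript was lower, with ECD signals of 588.9, 599.8 and 542.5 in the Ecd siRNA arrays, against 1076.6, 1011.4 and 1007.2 in the control siRNA arrays (55.9% of the control mean; log2 change -0.82, SE 0.10, limma adjusted p = 0.000172). All 5 basal epithelial markers with a usable probe set were above the filter, and their summed signals ran from 58300 to 61351 with Ecd siRNA and from 55554 to 60538 with control siRNA. The fibroblast list had 4 of 8 markers above the filter, and the immune and adipocyte lists had 0 markers above it, and the endothelial list had 1 of 4. The luminal list had 4 of 6, with KRT19 and PGR below the filter. The summed luminal signals were 10331 to 11293 with Ecd siRNA and 11132 to 11232 with control siRNA. The summed fibroblast signals were 1944 to 2200 with Ecd siRNA and 1739 to 2132 with control siRNA. Within these lists single markers passed in both directions. KRT18 (luminal) was lower at 69.8% of the control mean, while GATA3 (luminal) at 138%, CDH1 (basal list) at 119% and COL1A1 (fibroblast) at 145% were higher, each with groups that did not overlap. The part of other cell types in the results was not tested. Signals from the 3′ end of the beta-actin transcript were 1.07 to 1.16 times those from its 5′ end with Ecd siRNA and 1.07 to 1.11 times with control siRNA, a ratio that rises when RNA is degraded. Within a group the arrays correlated at 0.977 to 0.981 across tested genes, and between groups at 0.952 to 0.961.

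Since 9 of the 10 genes fell, promoters are shown where the RefSeq table (build GRCh38.p14) held one, which gave 11 promoters of 8 genes, all of the 10 except GINS4 and RECQL4. Each promoter spans 250 bases before and 50 bases after an annotated transcription start. The 5 printed are those of GINS1, GINS2 and GINS3, of CDC45, which had the largest change, and of TIPIN, which holds overlapping E2F-type words. Capitals mark E2F-type words and the CCAAT box read by the factor NF-Y, each on either strand. The E2F-type words searched were TTCCCGC and its variants, namely TTGGCGC as well as TTCGCGC and also TTGCCGC.
GINS1 promoter, chr20:25407423-25407722, plus strand: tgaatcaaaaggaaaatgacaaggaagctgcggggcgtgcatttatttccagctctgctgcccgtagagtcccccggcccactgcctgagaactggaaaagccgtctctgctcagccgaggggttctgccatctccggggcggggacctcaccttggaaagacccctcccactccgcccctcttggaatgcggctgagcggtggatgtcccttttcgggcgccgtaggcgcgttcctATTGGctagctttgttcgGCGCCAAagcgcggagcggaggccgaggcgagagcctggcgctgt
GINS2 promoter, chr16:85688905-85689204, minus strand: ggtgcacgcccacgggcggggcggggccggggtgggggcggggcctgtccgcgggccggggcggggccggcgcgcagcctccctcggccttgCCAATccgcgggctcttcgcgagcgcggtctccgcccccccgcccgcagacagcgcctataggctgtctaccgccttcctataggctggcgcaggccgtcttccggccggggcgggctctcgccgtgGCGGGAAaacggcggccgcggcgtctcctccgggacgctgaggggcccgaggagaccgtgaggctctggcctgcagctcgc
GINS3 promoter, chr16:58392221-58392520, plus strand: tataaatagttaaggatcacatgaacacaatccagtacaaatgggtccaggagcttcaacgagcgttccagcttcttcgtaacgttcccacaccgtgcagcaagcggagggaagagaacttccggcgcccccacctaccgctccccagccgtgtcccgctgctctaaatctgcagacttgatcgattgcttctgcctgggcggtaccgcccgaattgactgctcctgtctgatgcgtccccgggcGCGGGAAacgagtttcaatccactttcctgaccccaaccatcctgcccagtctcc
CDC45 promoter, the most downstream of 3, chr22:19479670-19479969, plus strand: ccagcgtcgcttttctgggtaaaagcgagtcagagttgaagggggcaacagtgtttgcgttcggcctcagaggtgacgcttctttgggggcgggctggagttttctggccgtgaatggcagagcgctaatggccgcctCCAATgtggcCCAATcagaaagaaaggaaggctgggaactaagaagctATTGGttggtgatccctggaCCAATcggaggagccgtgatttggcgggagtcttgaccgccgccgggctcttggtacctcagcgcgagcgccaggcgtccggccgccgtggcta
TIPIN promoter, the one of 2 with E2F-type words, chr15:66356636-66356935, minus strand: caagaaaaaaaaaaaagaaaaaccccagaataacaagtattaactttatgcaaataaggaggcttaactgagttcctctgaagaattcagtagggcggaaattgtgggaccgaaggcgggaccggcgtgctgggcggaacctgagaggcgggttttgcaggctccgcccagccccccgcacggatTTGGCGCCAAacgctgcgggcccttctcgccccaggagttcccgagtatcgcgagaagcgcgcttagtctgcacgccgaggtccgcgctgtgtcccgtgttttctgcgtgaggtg

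An E2F-type word stood in 7 of the 11 promoters, belonging to 7 of the 8 genes, while 13% of all 35116 promoters in the table held one. CCAAT stood in 7 of the 11, belonging to 6 of the 8 genes, against 34.6% of all promoters, and no E2F-type word overlapped a CCAAT. Among the 7, overlapping CDC45 promoters shared CCAAT boxes. The cell cycle homology words TTTGAA and TTCGAA, read by the MuvB complex that drives mitotic genes, were in 0 of the 11, against 16.4% of all promoters. In GINS1 the E2F-type word lay at bases 6 to 12 after the start, in GINS2 at -31 to -25, and in GINS3 across the start at -5 to 2. The CDC45 promoter shown held 4 CCAAT boxes, and none of the 3 CDC45 promoters held an E2F-type word of the searched spelling. The one shown holds ttggcgg, left unmarked, which differs from the searched TTGGCGC in its last base alone. Other spellings were not searched, so these promoters cannot be said to lack an E2F-type site. In TIPIN the words TTGGCGC on both strands overlapped at -65 to -56. A match is a description of these letters, not a sign of binding.

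Of the 10 genes, 9 fell with Ecd siRNA and 0 rose, while 21.1% of the 14603 tested genes passed in either direction, 11.0% as lower and 10.1% as higher. GINS3 did not pass the threshold. A gene was called when its limma adjusted p was under 0.05 for log2(signal + 16), read from its brightest probe set and adjusted by the Benjamini-Hochberg method over all tested genes. The 10 log2 changes ran from -3.18 to -0.32 with a median of -1.43, beside a median of 0.0078 over all tested genes. In 7 of the 10 the change was below -1, as in 2.26% of tested genes. The 3 Ecd siRNA arrays all lay below the 3 control arrays in 9 of the 10, against 18.3% of tested genes. These counts include CDC45 and CLSPN, which passed the filter through their control signals. The labels call the replicates biological, and every p-value is based on these 6 samples. The limma fit also draws each gene's spread toward that of all tested genes. For CDC45, CLSPN, GINS2, GINS3, GINS4, TIMELESS and WDHD1 this makes the SE and p-value smaller than their own replicates would give. For GINS1, TIPIN and RECQL4 it makes the SE larger, though the p-value is still smaller.

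**Figure D1:**
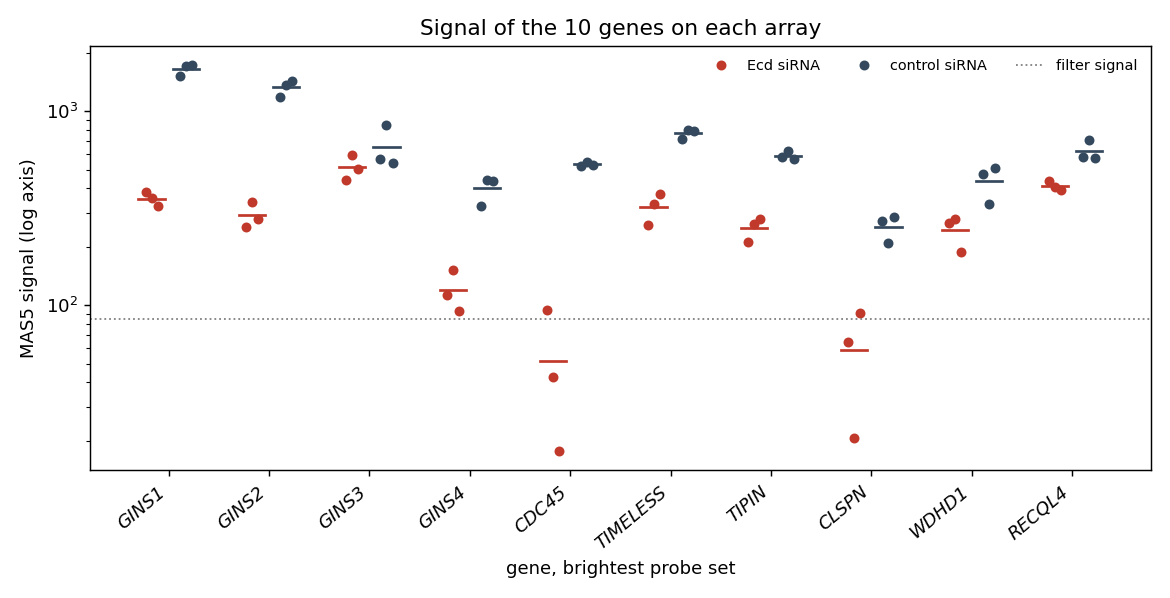
Signal of each gene's brightest probe set (log axis), 1 point per array and a bar at the mean of 3, with Ecd siRNA in red left of control siRNA in blue-grey; the dotted line is the filter signal of 84.6. The groups overlap in GINS3 alone of the 10 genes, and CDC45 and CLSPN have 2 Ecd siRNA arrays each below the dotted line.

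CDC45, the cofactor that joins the MCM ring to form the active helicase, had the largest change of the 10. Its signals were 95, 42.9 and 17.7 in the Ecd siRNA arrays, against 524.6, 548.4 and 525.0 in the control siRNA arrays. The control arrays lay close together, while the Ecd siRNA arrays spread widely at low signal. Means were 51.9 ± 39.4 with Ecd siRNA and 532.7 ± 13.6 with control siRNA (SD, n = 3 each), or 9.74% of the control mean. The log2 change was -3.18 (SE 0.36, 95% interval -3.98 to -2.38, limma adjusted p = 0.000142). Of the 3 Ecd siRNA arrays 2 lie under the filter signal, so CDC45 was tested through its control signals. The size of its change depends on how dim signals are treated, being -3.64 with a pseudocount of 1 and -2.42 with 64. CDC45 has 1 probe set, of the _s_at kind, whose probes can match more than 1 transcript. The brightest probe sets of GINS2, GINS3, TIMELESS and WDHD1 are of the same kind.

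Within GINS, the ring-shaped complex that bridges CDC45 and MCM, GINS1 and GINS2 fell by similar amounts in their brightest probe sets. GINS1, the PSF1 subunit, had signals of 385.1, 355.5 and 323.1 in the Ecd siRNA arrays, against 1517.4, 1699.3 and 1724.7 in the control siRNA arrays. Every Ecd siRNA array was far below every control array, and the log2 change of -2.17 (SE 0.11, 95% interval -2.40 to -1.93) had a limma adjusted p of 5.18e-07. GINS2, the PSF2 subunit, had signals of 253.1, 340.6 and 277.8 with Ecd siRNA, against 1186.9, 1367.6 and 1424.4 with control siRNA. Here too the groups were well apart, at 21.9% of the control mean and a log2 change of -2.14 (SE 0.13, limma adjusted p = 1.93e-06).

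GINS2 had another probe set above the filter that did not follow. This dimmer probe set gave 61.8, 226.7 and 226.2 with Ecd siRNA, against 308.8, 205.4 and 217.9 with control siRNA. Only the Ecd siRNA replicate 1 array was low, the groups overlapped, and the change of -0.63 did not pass (limma adjusted p = 0.373, fitted over all probe sets). Averaging its 3 probe sets put GINS2 at -1.11 (limma adjusted p = 0.00343). On the RefSeq table the span of GINS2 overlaps that of GSE1, a chromatin regulator gene, whose own probe set was at 0.33 (limma adjusted p = 0.0624). Which of these transcripts the dimmer probe set reads was not tested.

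GINS4, the SLD5 subunit, fell in its brightest probe set, and its dimmer ones gave smaller values. That probe set had signals of 112.7, 151.4 and 93.2 with Ecd siRNA, against 326.3, 442.1 and 434.1 with control siRNA, a log2 change of -1.64 (SE 0.21, limma adjusted p = 0.000339). The groups were separate, and 29.7% of the control mean remained. A dimmer probe set gave 112.9, 188.9 and 69.8 with Ecd siRNA, against 216.4, 221.0 and 236.4 with control siRNA. Its groups did not overlap either, but the change of -0.87 did not pass (limma adjusted p = 0.0814). The dimmest one tested overlapped between groups at -0.11. Averaging its 4 probe sets put GINS4 at -0.63, which did not pass (limma adjusted p = 0.136).

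GINS3, the PSF3 subunit, depended on the probe set. Its brightest one had signals of 441.1, 597.8 and 501.4 with Ecd siRNA, against 565.2, 845.4 and 542.8 with control siRNA. Only control replicate 2 stood clear of the Ecd siRNA arrays, and the log2 change of -0.32 (SE 0.18, 95% interval -0.71 to 0.08) did not pass (limma adjusted p = 0.257). Without control siRNA replicate 2 the change was -0.12 (limma adjusted p = 0.683). The other probe set is dimmer and gave 296.9, 267.0 and 349.1 with Ecd siRNA, against 565.8, 594.9 and 565.8 with control siRNA. Its groups did not overlap, and it fell by 0.89 on the log2 scale (SE 0.13, 95% interval -1.19 to -0.59, limma adjusted p = 0.00169 over all probe sets). The call for GINS3 therefore depends on which probe set is read. Both intervals lie above the changes of GINS1 and GINS2 in their brightest probe sets. The dimmer tested GINS2 probe set (-0.63) and the GINS2 average (-1.11) lie within the interval of the dimmer GINS3 probe set.

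The GINS subunits act as a stable complex, so their changes were compared directly, as within-array differences of log2(signal + 16) between genes. The level of such a difference has no meaning across probe sets, and only its shift between groups is read. GINS1 minus GINS3 was -0.19, -0.72 and -0.61 with Ecd siRNA, against 1.40, 0.99 and 1.64 with control siRNA, a shift of -1.85. The groups were separate, as they were for GINS2 minus GINS3 (shift -1.82) and GINS4 minus GINS3 (shift -1.32). Groups were also separate for GINS1 minus GINS4 (shift -0.53) and GINS2 minus GINS4 (shift -0.50). GINS1 minus GINS2 shifted by -0.03 and its groups overlapped (adjusted permutation p = 0.9). With GINS3 read by its other probe set, a setting added after seeing the data, the shifts were -1.27 for GINS1, -1.24 for GINS2 and -0.74 for GINS4, and the last then overlapped between groups. The dimmer tested probe sets of GINS2 (-0.63) and GINS4 (-0.87 and -0.11), which changed less, were not used in these pairs. The two-sided exact permutation p was 0.1 for each of the 5 separate pairs, read from the brightest probe sets (0.18 adjusted over the 9 pairs compared), and 3 against 3 arrays allow no p below 0.1.

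**Figure D2:**
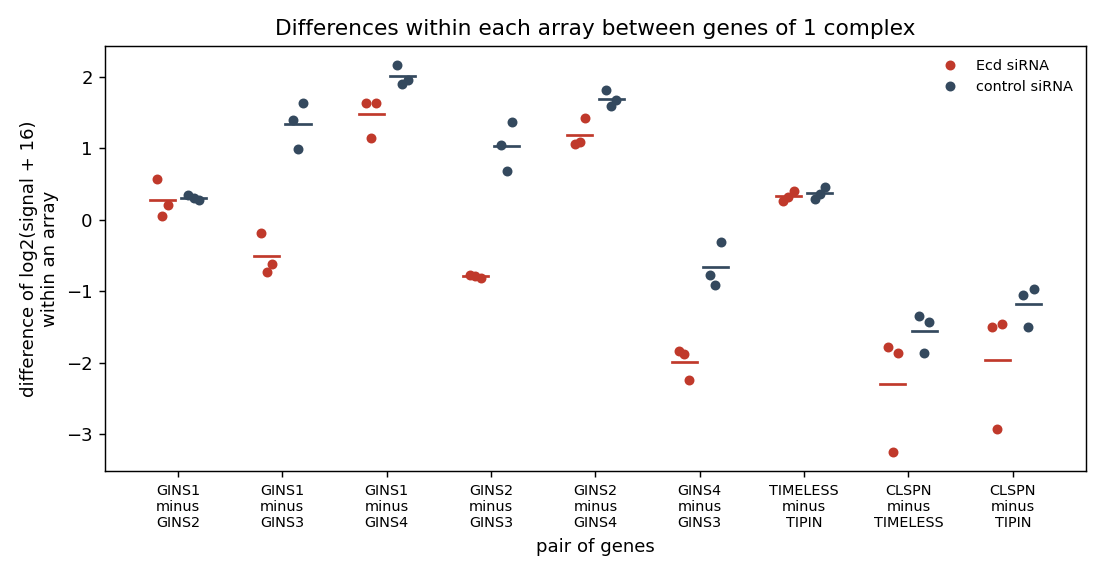
Within-array difference of log2(signal + 16) for 9 pairs of genes of 1 complex, 1 point per array and a bar at the mean of 3, with Ecd siRNA in red left of control siRNA in blue-grey; only the shift between the colours is comparable across pairs. The pairs with GINS3 shift by -1.85 to -1.32, while TIMELESS minus TIPIN shifts by -0.04.

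TIMELESS and TIPIN, whose proteins form an obligate pair at the fork, fell by nearly the same amount. TIMELESS had signals of 259.5, 330.9 and 373.5 with Ecd siRNA, against 714.8, 799.9 and 791.1 with control siRNA (log2 change -1.23, SE 0.14, limma adjusted p = 0.000171). TIPIN had signals of 212.5, 262.2 and 277.8 with Ecd siRNA, against 578.6, 620.2 and 570.0 with control siRNA (log2 change -1.19, SE 0.14, limma adjusted p = 0.000166). In both genes the groups were apart, and the Ecd siRNA array of replicate 1 was the lowest. The means were 41.8% of control for TIMELESS and 42.5% for TIPIN. TIMELESS minus TIPIN was 0.27, 0.32 and 0.41 with Ecd siRNA, against 0.30, 0.36 and 0.46 with control siRNA. These overlap almost fully, with a shift of -0.04 (SD 0.07 with Ecd siRNA and 0.08 with control siRNA, n = 3 each; exact permutation p = 0.6, adjusted 0.675). A further TIMELESS probe set lay far under the filter, at 5.7 to 14.4 over all arrays, and averaging both put TIMELESS at -0.58, still past the threshold (limma adjusted p = 0.0327).

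CLSPN encodes claspin, the adaptor through which ATR activates CHK1. Its brightest probe set had signals of 64.7, 20.6 and 91.5 with Ecd siRNA, against 271.4, 208.5 and 283.2 with control siRNA. The groups did not overlap, and the log2 change was -1.98 (SE 0.38, 95% interval -2.81 to -1.14, limma adjusted p = 0.00376). As for CDC45, 2 of its Ecd siRNA arrays lie under the filter signal of 84.6, so CLSPN was tested through its control signals. Of the other 3 probe sets, 2 above the filter were at -0.46 and -0.65, and neither passed (limma adjusted p = 0.270 and 0.181, over all probe sets), although in both the groups did not overlap. The one at -0.65 had Ecd siRNA signals of 63, 80.5 and 76.2, all under 84.6, so it too was tested through its control signals. The remaining one lay under the filter. Averaging all 4 put CLSPN at -0.76, which passed (limma adjusted p = 0.0187). The probe set under the filter overlapped between groups, with means of 45.8 with Ecd siRNA and 40.2 with control siRNA. CLSPN minus TIMELESS overlapped between groups, with a shift of -0.74 and an SD of 0.83 among the Ecd siRNA arrays (n = 3; adjusted exact permutation p = 0.386). That shift was -0.27 without Ecd siRNA replicate 2, -0.29 with a pseudocount of 64 and -1.05 with a pseudocount of 1. CLSPN minus TIPIN shifted by -0.79 with the same adjusted p, and by -0.30, -0.35 and -1.08 under those settings.

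WDHD1, also called AND-1, anchors DNA polymerase alpha to the helicase. It fell in each of its 3 probe sets, with log2 changes of -0.80, -1.09 and -0.69 from the brightest to the dimmest. The brightest had signals of 266.5, 277.9 and 188.0 with Ecd siRNA, against 476.6, 331.3 and 509.6 with control siRNA. Control replicate 2 was nearest to the Ecd siRNA arrays without reaching them, and the change of -0.80 (SE 0.20) had a limma adjusted p of 0.0166. This call was lost without Ecd siRNA replicate 3 (-0.64, adjusted p = 0.0515), without control siRNA replicate 1 (-0.73, adjusted p = 0.0675) and without control siRNA replicate 3 (-0.69, adjusted p = 0.0666). The next brightest gave 185.2, 179.1 and 137.0 with Ecd siRNA, against 371.4, 314.9 and 439.3 with control siRNA, and its fall had a limma adjusted p of 0.00338 over all probe sets. The dimmest had a limma adjusted p of 0.0424, and its call was lost in all 6 fits that left out 1 array (adjusted p 0.0751 to 0.148) and with the replicate number as a block (0.0624), a common median (0.0512) or no filter (0.0947).

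RECQL4, a RecQ helicase that takes part in helicase assembly at origins, fell in both of its probe sets, by different amounts. Its brightest probe set had signals of 438.4, 406.3 and 392.6 with Ecd siRNA, against 577.1, 712.2 and 572.2 with control siRNA. The groups did not overlap, and 66.5% of the control mean remained (log2 change -0.57, SE 0.13, limma adjusted p = 0.00885). Its other probe set gave 111.6, 35.9 and 45.9 with Ecd siRNA, against 234.7, 209.4 and 156.4 with control siRNA. Of these Ecd siRNA arrays 2 lie under the filter signal of 84.6, so this probe set was tested through its control signals. Its fall was larger, a log2 change of -1.52 (SE 0.35, limma adjusted p = 0.0174 over all probe sets), at dimmer signals. This call was lost without Ecd siRNA replicate 2 (limma adjusted p = 0.0540), Ecd siRNA replicate 3 (0.0528), control siRNA replicate 1 (0.0789) or control siRNA replicate 2 (0.0603). In the fit over all probe sets the brightest one was also lost without control siRNA replicate 2 (0.0598). Averaging both put RECQL4 at -1.04 (limma adjusted p = 0.00915).

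Over all 23 probe sets of the 10 genes, 19 were above the filter and 4 below it. All 19 had a lower mean log2 value with Ecd siRNA, 13 passed as lower and 0 as higher, against 7.58% lower among the 32805 probe sets tested. Groups were separate in 16 of the 19, against 15.5% of tested probe sets. These counts include the CDC45 probe set, the brightest of CLSPN and the dimmer of RECQL4, tested through their control signals. The counts of 19 and 16 also include the CLSPN probe set at -0.65, tested in the same way. Its Ecd siRNA signals of 63, 80.5 and 76.2 all lie under the filter signal. Of the 6 genes with more than 1 probe set above the filter, WDHD1 and RECQL4 fell in every one on all 6 arrays, though not with each array left out, while GINS2, GINS3, GINS4 and CLSPN had at least 1 that did not pass.

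**Figure D3:**
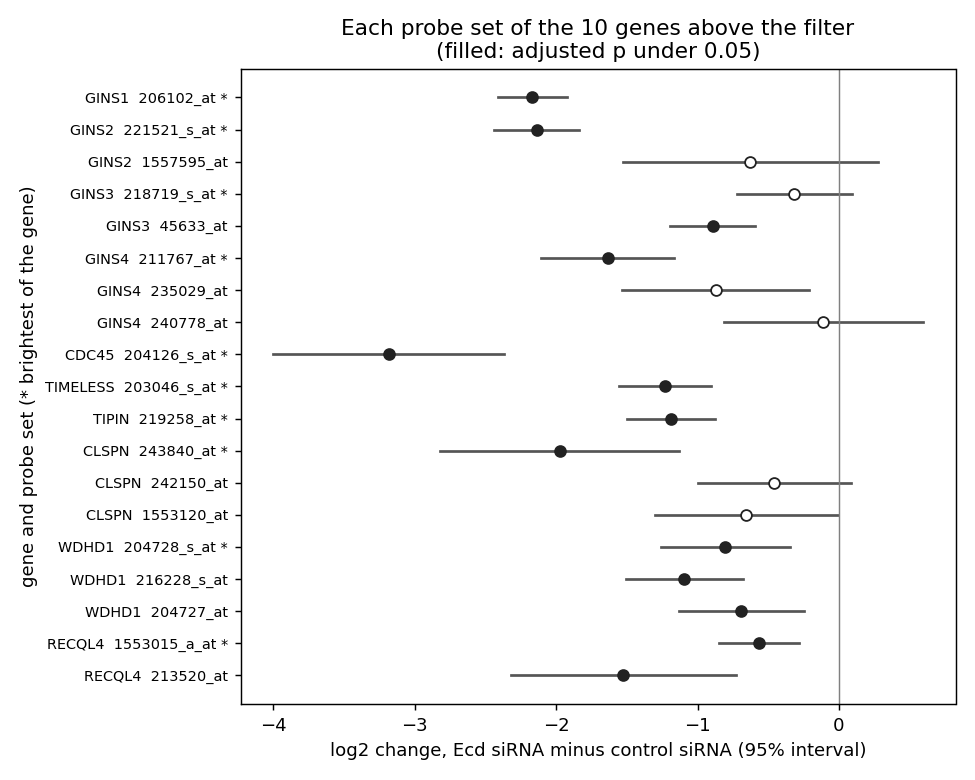
Log2 change with its 95% interval for the 19 probe sets above the filter, filled where the limma adjusted p was under 0.05, with a star at the brightest probe set of each gene. All 19 points lie left of 0 and 13 are filled; GINS4 has 1 filled point at -1.64 and open ones at -0.87 and -0.11.

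The 10 genes were then set beside 6 lists of other replication genes. The MCM genes of the helicase ring fell in 6 of 6, with a median of -0.97 and a range of -1.37 to -0.84, which is narrower than that of the 10 genes. MCM6 was at -1.19 (limma adjusted p = 2.94e-06), MCM7 at -1.07 and MCM4 at -1.37. These are values of brightest probe sets.

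Genes that activate the helicase fell in 10 of 11 tested, with a median of -1.32. CCNA2, the cyclin A2 gene, was at -2.48 (limma adjusted p = 1.13e-07), DBF4, which activates the origin kinase CDC7, at -1.80 and DONSON, which delivers GINS to the ring, at -1.16. MCM10, another activator, was at -2.06 and TICRR, the treslin gene, at -1.46. TICRR had signals of 45, 83 and 32.7 with Ecd siRNA, against 101.2, 246.8 and 184.8 with control siRNA. Its Ecd siRNA arrays all lie under the filter signal, so TICRR was tested through its control signals. The count of 10 of 11 includes TICRR. DBF4B was at -0.68 and did not pass (limma adjusted p = 0.0833). Polymerase and primase genes fell in 9 of 12, with a median of -0.67, among them POLA2 (-1.67), the primase gene PRIM1 (-1.41) and POLD2 (-0.84). POLE (-0.43), POLD3 (-0.31) and POLD4 (-0.10) did not pass, with limma adjusted p of 0.0640, 0.0874 and 0.842.

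In the pathway that claspin serves, ATR-CHK1 signalling genes fell in 7 of 13 tested, and the median was -0.29. RPA3, a subunit of the single-strand binding protein RPA, was at -1.05, and CHEK1, the CHK1 kinase gene, was at -0.88. CDC25A, a phosphatase gene that CHK1 acts on, was at -1.39. ATR itself was at -0.29 with a limma adjusted p of 0.0367. This list's count of 7 dropped to 4 without Ecd siRNA replicate 2, without control siRNA replicate 1 and without control siRNA replicate 3.

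Fork remodelling and cohesion genes fell in 3 of 9, namely DSCC1 (-1.48), CHTF18 (-0.93) and DDX11 (-0.80), and the other 6 lay between -0.85 and 0.09. DSCC1 and CHTF18 encode parts of an alternative clamp loader, and DDX11 is a helicase gene that acts with TIMELESS. Among the other RecQ helicase genes, BLM was the 1 of 4 that fell (-0.76, limma adjusted p = 0.00509). WRN was at -0.17 (adjusted p = 0.460), RECQL at -0.16 (0.166) and RECQL5 at 0.22 (0.716), beside -0.57 for RECQL4. Over the 6 lists together 36 of 55 tested genes fell and 0 rose, with a median of -0.73. Whether the 10 genes changed more than these lists was not tested.

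**Figure D4:**
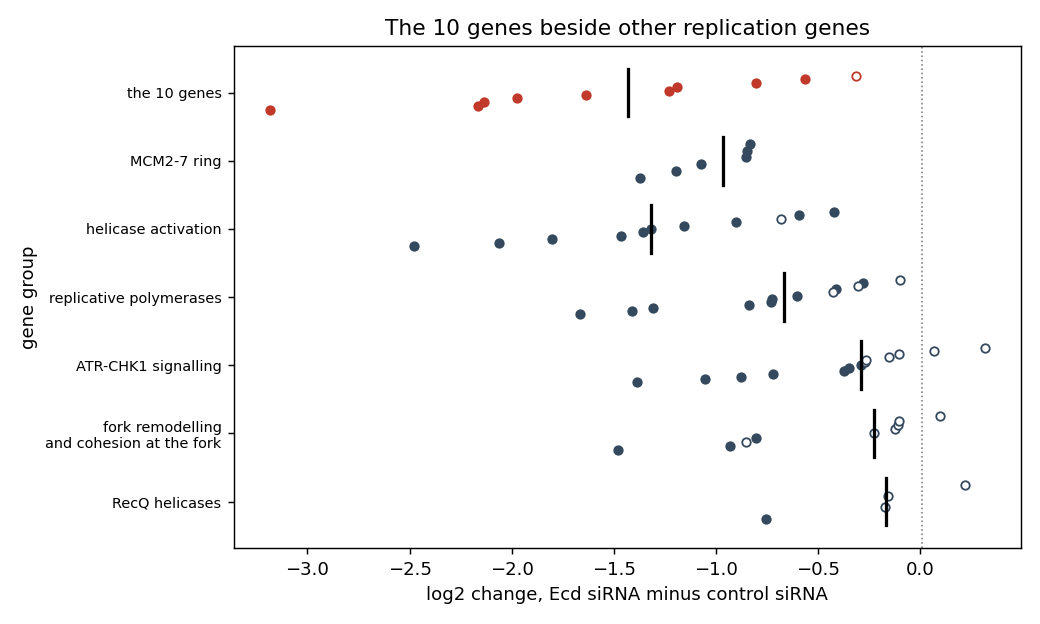
Log2 change of each tested gene, 1 point per gene, for the 10 genes (red, top) and 6 lists of other replication genes (blue-grey), filled where the gene passed the threshold, with a bar at each median and a dotted line at the median of all tested genes (0.0078). The medians are -1.43 for the 10 genes, -0.97 for the MCM ring and -0.29 for ATR-CHK1 signalling.

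Across the 6 arrays the log2 signals of the 10 genes correlated with one another at 0.23 to 0.995, with a median of 0.87 over 45 pairs. After each group's mean was removed the median was 0.02, with a range of -0.93 to 0.93, so the shared pattern was the difference between the groups. The 5 other genes whose levels over the 6 arrays were most like the mean of the 10 standardised genes, out of 14593, were BCL2A1, CENPM, PRC1, TPX2 and MOK, with a Pearson r of 0.998 to 0.9998. CENPM encodes a centromere protein, PRC1 and TPX2 act on spindle microtubules, BCL2A1 is a survival gene of the BCL2 family and MOK is a protein kinase gene. Their log2 changes were -1.71 for BCL2A1, -3.35 for CENPM, -2.50 for PRC1, -2.05 for TPX2 and -0.74 for MOK. After each group's mean was removed, their r with the same profile was still 0.89 to 0.98. These genes were picked for the highest r among many, over 6 arrays in 2 groups, so the values are a description.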

How the data were processed

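The deposited table holds linear intensity values, 1 for each probe set on each array. They are MAS5 signals per the submitters' processing notes, with no version or scaling target named there. The mean of values between percentiles 2 and 98 was about 500.05 on every array, so the arrays had been scaled alike, which hides any shift common to every transcript. The table has no detection calls and 0 missing values. Array medians ran from 128.7 to 147.6. The number of arrays limits the precision.

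Probe sets were named from the platform annotation (41097 with 1 symbol, 1801 with several). Each gene was read from its brightest single-symbol probe set. A gene was tested if the mean log2(signal + 16) of that probe set was in the upper 60% of the table, above a signal of 84.6, which is not a detection limit. The Ecd siRNA and control siRNA arrays, 6 in all, were fitted without covariates by limma 3.58.1 in R 4.3.3 (lmFit, then eBayes with trend = TRUE), once over genes and once over all probe sets. Fold changes on this scale understate those of dim transcripts. The procedure was tested on simulated data with independent normal noise of the spread fitted to each gene. How it behaves where dim signals depart from such noise was not tested.

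The 10 genes and the lists were chosen with earlier results of these data known. Of the 60 listed pathway genes, 55 were tested and the rest were not analysed here. Genes were named by a rule: all 10 members, ECD, in each list the genes with the lowest adjusted p, at most 3, of those that passed, every other gene of a list where 5 or fewer did not pass, and the 5 most alike genes. MCM10, TICRR, ATR, GSE1 and the cell type markers with values were named after their values were seen. The alternatives were other pseudocounts, scalings, filters, probe set choices and variance models, leaving out each array in turn, and a block for the replicate number.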

Additional observations from a re-analysis of the deposited data

How the results depend on the processing

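Over 17 alternative settings, 160 of 167 values of the 10 genes kept their direction and side of the threshold, 5 lost their call, 2 gained one and 0 changed sign. The lost calls were those of GINS4 when its probe sets were averaged (-0.63), of GINS2 when probe sets other than the _s and _x kinds were preferred (-0.63, limma adjusted p = 0.326), and of WDHD1 on leaving out any of 3 arrays. The gained calls were those of GINS3, at -0.60 when its probe sets were averaged and -0.89 when the other kinds were preferred; TIMELESS was not tested under that preference. Without control siRNA replicate 2 the change of GINS3 was -0.12. The count of the 10 genes that fell was 7 to 9 over all settings and 8 to 9 with 1 array left out, and it was 7 with the filter at the upper 40%, where CDC45 and CLSPN were not tested. The count of their probe sets that fell was 10 to 12 with 1 array left out, against 13. All genes past the threshold numbered 3075, and 2206 to 2784 with 1 array left out. ATR-CHK1 signalling genes that fell numbered 4 with a common median, with the other kinds of probe set preferred and without the intensity trend, and 4 to 6 with 1 array left out, against 7; 2 RecQ genes fell with probe sets averaged, against 1. Genes that activate the helicase and fell numbered 7 with probe sets averaged and 9 to 10 with 1 array left out, against 10. Polymerase and primase genes that fell numbered 7 with probe sets averaged and 7 to 8 with 1 array left out, against 9. The causes were not tested. Arrays of the same replicate number had deviations from their group means that correlated at -0.01, 0.08 and 0.15, and not every array correlated best with its own number, so the numbers were not taken to pair the arrays. With the replicate number as a block 3277 genes passed and the same count of 9 of the 10 genes fell, with GINS3 at an adjusted p of 0.0981. Dim signals limit CDC45 and CLSPN most, since their Ecd siRNA means of 51.9 and 58.9 lie under the filter signal of 84.6.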
